A study of Mus musculus with 6 samples.

Results

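The genes of the MHC class I antigen presentation pathway were followed in ribosome-bound mRNAs of hippocampal astrocytes. The 10 members are H2-K1, H2-D1, B2m, Tap1, Tap2, Tapbp, Psmb8, Psmb9, Psmb10 and Nlrc5, chosen by name from the known pathway. They are 10 of the 22086 genes counted, and 8 of them passed the filter on low counts, which kept 13545 genes. Tap2 and Nlrc5 did not pass it.

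Translating ribosome affinity purification (TRAP) immunoprecipitates ribosomes through a tagged ribosomal protein and recovers the mRNAs bound to them. All mice were 6 weeks-old, carried Cx43 fl/fl and were heterozygous for Aldh1l1:L10a-eGFP, a transgene in which the Aldh1l1 promoter drives the ribosomal protein L10a fused to eGFP in astrocytes. The Cx43KO mice carried hGFAP-Cre in addition, a Cre driven by the human GFAP promoter, and the Cx43FL mice were their littermates without Cre. Each genotype has 3 libraries made from whole hippocampi, and the sources used here do not give the number of mice per library. The p-values thus measure the spread between these libraries, which may be partly technical.

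MHC class I molecules show peptides from the inside of a cell to CD8+ T cells. Peptides are cut by the proteasome, in which interferon can replace catalytic subunits by those of the immunoproteasome, and are pumped by the transporter TAP into the endoplasmic reticulum, where they are loaded on a heavy chain bound to β2-microglobulin. In the resting brain the pathway is kept low, and glial cells raise it under interferon.

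The promoters of the heavy chains and of B2m show letters that interferon-responsive and NF-κB-responsive genes often hold. RefSeq windows from 250 bases before to 50 bases after a start site (GRCm38.p6) were at hand for 8 of the 10 members, Tap2 and Nlrc5 being the other ones. The 3 stretches are shown because they stand before the RefSeq starts of both heavy chains and of their light chain, and capitals mark the matches to an NF-κB consensus and to an IRF element (GAANNGAAA or GAAANNGAAA). Both strands were searched, and in the heavy chains the IRF element is read on the opposite strand. The H2-D1 stretch lies inside the span of the Ensembl transcript counted here, whose start is farther upstream.
H2-K1, chr17:34000429-34000458, minus strand: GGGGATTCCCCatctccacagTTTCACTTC
H2-D1, chr17:35262923-35262952, plus strand: GGGGATTCCCCatctcctcagTTTCACTTC
B2m, chr2:122147540-122147621, plus strand: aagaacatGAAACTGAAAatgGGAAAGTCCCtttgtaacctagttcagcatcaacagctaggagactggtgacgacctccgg

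The H2-K1 and H2-D1 stretches were identical at 29 of 30 bases, and over a longer stretch of 91 bases at 85. An IRF element was present in 3 of the 8 members' windows, these 3, and in 10.4% of all 32851 windows. An NF-κB match was present in the same 3 members and in 8.46% of windows. A GAS element (TTCNNNGAA), a type of site known from interferon-gamma responsive genes, was present in Psmb8 alone among the members and in 8.30% of windows. Tap1 and Psmb9 are divergent neighbours whose start sites lie 226 bases apart, and their windows share 275 bases. These matches describe letters only.

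The libraries held 33423491 to 77030398 counts on transcripts, and 14787303 to 34733473 after 1 transcript, the most counted, was kept to represent a gene. Gja1, the gene of Cx43 and the target of the deletion, had 92.0, 91.7 and 82.3 counts per M of the normalized library size (CPM) in the Cx43FL libraries, in replicate order as everywhere here, and 87.2, 98.4 and 95.1 CPM in the libraries labelled Cx43KO. Its log2 fold change was 0.08 ± 0.28 (SE), with an adjusted p of 0.949 (edgeR's quasi-likelihood test, adjusted by Benjamini-Hochberg over all genes tested). A loss of Gja1 was therefore not seen in these counts, and whether they come from the deleted part of the gene was not tested. Cx43KO and every direction given here stand for the label of a library. The labels give no batch. The numbers that name the deposited tables form 1 run in Cx43FL and another in Cx43KO, and an effect that follows these runs, whatever they mark, cannot be told apart from the genotype. Cx43KO replicate 1 stood apart on the first principal component (41.0% of the variance), at 123 against -50.7 to -0.42 for the other libraries. Its summed astrocyte markers were the lowest, at 11265 CPM against 19203 to 31322 CPM, and its summed neuron markers (4683 CPM against 1611 to 3381) and oligodendrocyte lineage markers (2541 CPM against 573 to 956) the highest. The summed astrocyte markers exceeded the summed neuron markers in every library, but the neuronal gene Snap25 (2761 CPM) exceeded Gfap (549 CPM) in Cx43KO replicate 1, and all 12 astrocyte and all 10 neuron markers had counts in every library.

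In the libraries labelled Cx43KO replicates 2 and 3, most of the class I pathway stood well above Cx43FL, and in Cx43KO replicate 1 it did not. Both of these libraries were above every Cx43FL library for 8 of the 10 members, the others being Tap2 and Psmb10. Over all tested genes this held for 8.08% with replicate 1 above as well, and for 5.80% without it. Cx43KO replicate 1 was above every Cx43FL library for 2 members, Tap1 and Psmb9, within their range for 3 and below it for 5. Among all tested genes it was above for 37.9% and below for 36.6%. Over the 8 members tested, the median difference from the Cx43FL mean was -0.28 in Cx43KO replicate 1, 2.11 in replicate 2 and 2.09 in replicate 3 on the log2(CPM + 0.5) scale, where all tested genes had medians of 0.02 in each. Pseudocounts of 0.5 CPM understate the change of low genes on this scale.

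**Figure D1:**
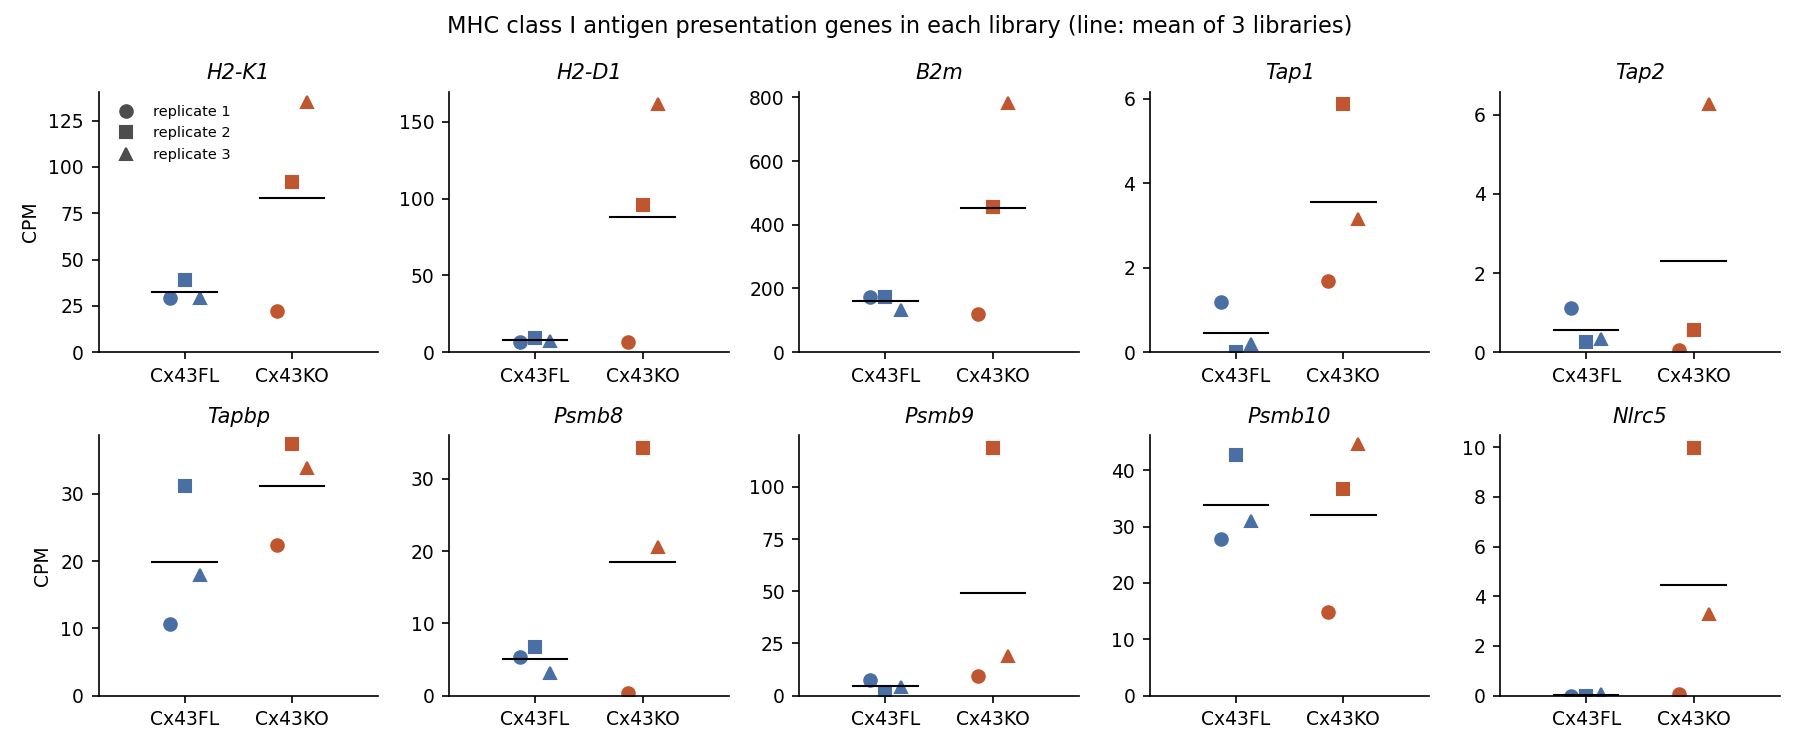
Level of each of the 10 pathway genes in CPM (vertical axes, each starting at 0 with its own scale) in every Cx43FL and Cx43KO library, with a line at the mean of the 3 libraries. Cx43KO replicates 2 and 3 lie above the Cx43FL libraries in all panels but Tap2 and Psmb10, and Cx43KO replicate 1 lies near or below the Cx43FL libraries in most.

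With all 6 libraries, edgeR's quasi-likelihood test called none of the 8 members, and it called 0.00738% of all tested genes higher in Cx43KO. Calls needed an adjusted p under 0.05 together with a mean normalized count over 50 in the higher genotype. At an unadjusted p under 0.05, 4 of the 8 members were higher (H2-K1, H2-D1, B2m and Psmb9), against 5.66% of all tested genes, and none was lower. DESeq2 with its prior called 2 members, H2-D1 and Psmb9, and 0.827% of genes. Without Cx43KO replicate 1, edgeR called 2 of the 10 members, H2-D1 and B2m, against 0.0788% of genes, that is 11 genes. Leaving out any other single library called no member. For both genes Cx43KO replicate 1 was far below replicates 2 and 3. The fit without it therefore widens the difference by its choice of libraries, and is no independent test. The members' median log2 fold change was 1.69 over the 8 tested with all libraries and 2.19 over the same 8 without that library, beside 0.07 and 0.00 over all genes tested. Every Cx43KO library was above every Cx43FL library for 2 of the 8 tested members, Tap1 and Psmb9, and for 8.08% of tested genes. Of these 2, Tap1 had passed the filter only through the Cx43KO libraries. The pattern of replicates 2 and 3 but not 1 being above, which was singled out after the values were seen, held for 5 of these 8 members and for 5.80% of tested genes.

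The heavy chains H2-K1 and H2-D1 are the polymorphic subunits that hold the peptide. H2-K1 (ENSMUSG00000061232, chr17:33996053-34000347, minus strand, 8 exons) had 447, 590 and 446 counts in Cx43FL and 362, 2284 and 4367 in Cx43KO, that is 29.4, 39.1 and 29.0 CPM against 22.5, 91.8 and 135 CPM. The genotypes overlapped, since Cx43KO replicate 1 was below every Cx43FL library, and the other two libraries were 2.82-fold and 4.14-fold above the Cx43FL mean. Its log2 fold change was 1.35 ± 0.54 (SE; edgeR, adjusted p = 0.559), and 1.79 ± 0.32 without Cx43KO replicate 1 (adjusted p = 0.101), so it was not called with either set. It was 0.81 without Cx43KO replicate 3.

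H2-D1 (ENSMUSG00000073411, chr17:35262730-35267499, plus strand, 8 exons) differed more than H2-K1. It had 98, 140 and 113 counts in Cx43FL and 107, 2380 and 5240 in Cx43KO, or 6.46, 9.29 and 7.36 CPM against 6.64, 95.7 and 162 CPM. Cx43KO replicate 1 lay inside the Cx43FL range, and replicates 2 and 3 were 12.4-fold and 21.0-fold above the Cx43FL mean. The log2 fold change was 3.51 ± 0.85 with all libraries (edgeR, unadjusted p = 0.00169, adjusted p = 0.490) and 4.06 ± 0.37 without Cx43KO replicate 1 (edgeR, adjusted p = 0.00272), and 2.73 without Cx43KO replicate 3 (edgeR, adjusted p = 0.246). DESeq2 with its prior called it with all libraries (adjusted p = 0.00343).

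B2m encodes β2-microglobulin, the invariant light chain that every class I molecule needs to reach the surface (ENSMUSG00000060802, chr2:122147686-122153083, plus strand, 4 exons). It had 2606, 2619 and 2042 counts in Cx43FL and 1954, 11339 and 25384 in Cx43KO, or 172, 174 and 133 CPM against 121, 456 and 784 CPM. It thus took the same course as H2-K1, with Cx43KO replicate 1 just below the Cx43FL range and the other two libraries 2.86-fold and 4.91-fold above the Cx43FL mean. Its log2 fold change was 1.51 ± 0.52 with all libraries (edgeR, adjusted p = 0.540) and 1.95 ± 0.28 without Cx43KO replicate 1 (edgeR, adjusted p = 0.0214). It was 0.86 without Cx43KO replicate 3 (edgeR, adjusted p = 0.424).

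The proportion of B2m to H2-K1 overlapped between the genotypes, and those that involve H2-D1 differed in Cx43KO replicates 2 and 3. Per kb of transcript, B2m was 11.0, 8.36 and 8.62 times H2-K1 in Cx43FL and 10.2, 9.35 and 10.9 times in Cx43KO, so no library stood out. B2m was 65.0, 45.7 and 44.2 times H2-D1 in Cx43FL and 44.6, 11.6 and 11.8 times in Cx43KO. The ratio of H2-D1 to H2-K1 per kb differed, going from 0.169, 0.183 and 0.195 in Cx43FL to 0.228, 0.803 and 0.924 in Cx43KO. The latter ratio did not overlap, although Cx43KO replicate 1 stood only slightly above Cx43FL. These proportions lie within each library and do not depend on its scaling. Of the 50-base windows of the transcripts counted, 8.79% for H2-K1 and 14.3% for H2-D1 also occur in another gene's transcript, and reads mapping more than once had been removed. The 4 transcripts of H2-D1 had log2 fold changes of 3.42 to 3.59, and the 9 of H2-K1 0.63 to 1.62, when every transcript was fitted on its own.

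**Figure D2:**
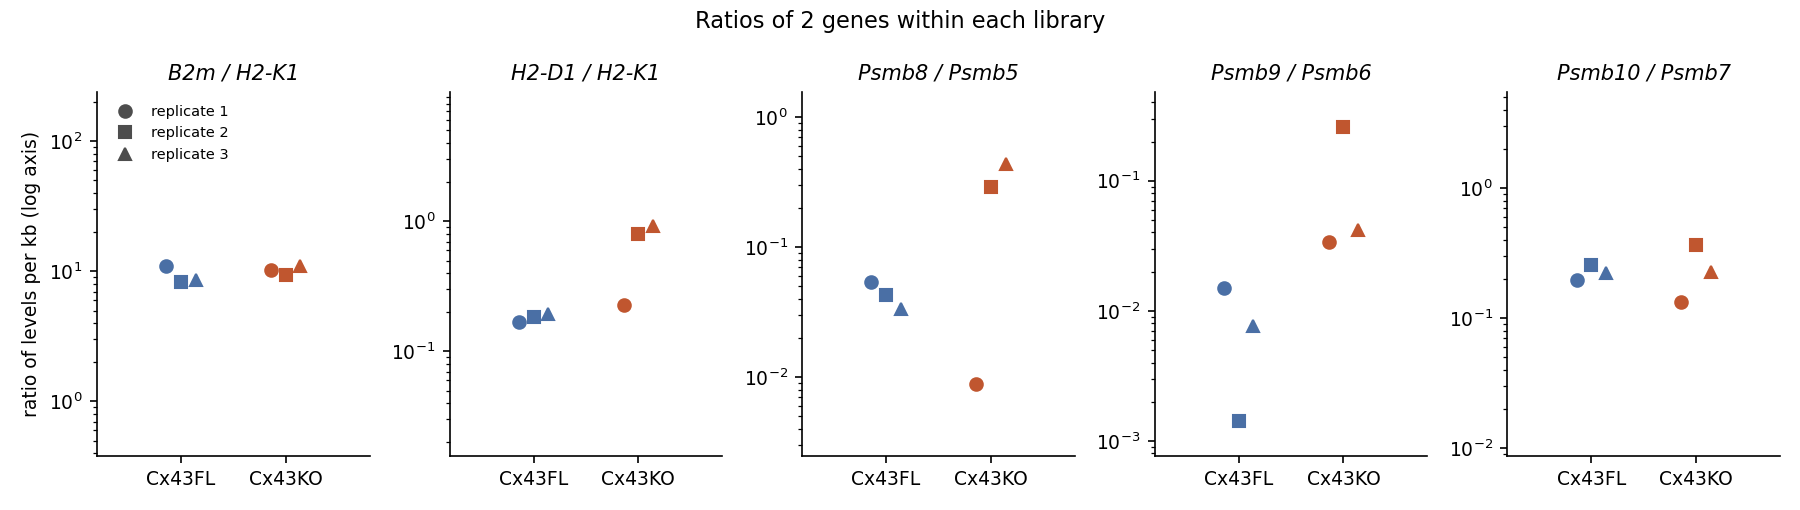
Ratio of 2 genes within each library, as CPM per kb of transcript (vertical axes, logarithmic, each spanning the same number of decades), for B2m over H2-K1, H2-D1 over H2-K1 and each immunoproteasome subunit over the constitutive subunit it replaces. B2m over H2-K1 stays between 8.36 and 11.0 in all 6 libraries, while H2-D1 over H2-K1 is 0.803 and 0.924 in Cx43KO replicates 2 and 3.

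Tap1 and Tap2 are the subunits of the peptide transporter, and Tapbp encodes tapasin, which bridges the transporter and the heavy chain. Both transporter genes were close to the limit of detection in Cx43FL, where 3 counts correspond to at most 0.199 CPM. Tap1 (ENSMUSG00000037321, chr17:34187802-34197219, plus strand, 12 exons) had 18, 0 and 3 counts in Cx43FL and 27, 146 and 102 in Cx43KO, or 1.19, 0 and 0.195 CPM against 1.68, 5.87 and 3.15 CPM. The genotypes did not overlap, although Cx43KO replicate 1 stood only slightly above Cx43FL replicate 1. Its log2 fold change was 2.94 ± 1.49 (edgeR). Tap1 passed the filter on low counts only through the Cx43KO libraries, where it was higher, so that no p is given for it. The estimate ranged from 2.35 without Cx43FL replicate 2 to 5.10 without Cx43FL replicate 1.

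Tap2 (ENSMUSG00000024339, chr17:34203527-34216321, plus strand, 12 exons) rested on a single library. It had 17, 4 and 5 counts in Cx43FL and 1, 14 and 203 in Cx43KO, or 1.12, 0.265 and 0.326 CPM against 0.0621, 0.563 and 6.27 CPM. Only Cx43KO replicate 3 was above the Cx43FL libraries, and an antisense gene, Gm15821, shares 518 of its exonic bases with 21 counts in all. Without Cx43KO replicate 1 it passed the filter, with a log2 fold change of 2.57 ± 1.46 (edgeR, adjusted p = 0.664).

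Tapbp (ENSMUSG00000024308, chr17:33919332-33929292, plus strand, 8 exons) was counted better and differed less. It had 10.7, 31.2 and 17.9 CPM in Cx43FL and 22.4, 37.3 and 33.9 CPM in Cx43KO, with Cx43KO replicate 1 inside the Cx43FL range. Its log2 fold change was 0.65 ± 0.50 (edgeR, adjusted p = 0.708), with 0.33 without Cx43FL replicate 1 and 1.12 without Cx43FL replicate 2, and its 5 transcripts, fitted singly, went from -1.28 to 0.62.

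Psmb8, Psmb9 and Psmb10 are the catalytic subunits of the immunoproteasome, which take the places of the constitutive subunits Psmb5, Psmb6 and Psmb7 in that order. They did not move together. Psmb8 (ENSMUSG00000024338, chr17:34197790-34201454, plus strand, 6 exons) had 82, 101 and 48 counts in Cx43FL and 7, 854 and 667 in Cx43KO, or 5.40, 6.70 and 3.13 CPM against 0.435, 34.3 and 20.6 CPM. Cx43KO replicate 1 was far below every Cx43FL library and the other two were 6.76-fold and 4.06-fold above their mean, so that its log2 fold change of 1.86 ± 1.07 had an adjusted p of 0.632 (edgeR). Without that library it was 2.43 ± 0.57 (edgeR, adjusted p = 0.284), and without Cx43KO replicate 2 it was 1.05.

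For Psmb9 (ENSMUSG00000096727, chr17:34182033-34187353, minus strand) the genotypes did not overlap. It had 116, 20 and 66 counts in Cx43FL and 148, 2956 and 618 in Cx43KO, or 7.64, 1.33 and 4.30 CPM against 9.19, 119 and 19.1 CPM. Cx43KO replicate 2 carried most of the difference, at 26.9-fold above the Cx43FL mean, with replicate 3 at 4.32-fold and replicate 1 just above the highest Cx43FL library. The log2 fold change was 3.47 ± 0.96 (edgeR, adjusted p = 0.490; DESeq2 with its prior, adjusted p = 0.0168), and 1.68 without Cx43KO replicate 2 (edgeR, adjusted p = 0.578). With all libraries the exact 2-sided permutation test gave p = 0.1, the smallest that 3 against 3 libraries can give. The transcript counted is annotated as a retained intron with 4 exons, and the 4 of its 6 transcripts that passed the filter had log2 fold changes of 3.44 to 3.71.

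Psmb10 (ENSMUSG00000031897, chr8:105935739-105938444, minus strand, 8 exons) did not share the difference. It had 421, 643 and 476 counts in Cx43FL and 240, 913 and 1447 in Cx43KO, which after scaling were 27.7, 42.7 and 31.0 CPM against 14.9, 36.7 and 44.7 CPM. The genotypes overlapped widely, and its log2 fold change was -0.07 ± 0.47 (edgeR, adjusted p = 0.975), turning to 0.26 ± 0.38 without Cx43KO replicate 1 and to 0.12 without Cx43FL replicate 2.

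Set against the subunits they replace, Psmb8 and Psmb9 made up a larger part in Cx43KO replicates 2 and 3. The ratio of Psmb8 to Psmb5 per kb of transcript was 0.0543, 0.0425 and 0.0332 in Cx43FL and 0.00887, 0.289 and 0.438 in Cx43KO. That of Psmb9 to Psmb6 was 0.0151, 0.00142 and 0.00768 in Cx43FL and 0.0338, 0.260 and 0.0416 in Cx43KO, with no overlap. Its size, though not its comparison between libraries, depends on the length of the retained-intron transcript counted for Psmb9. The ratio of Psmb10 to Psmb7 overlapped, at 0.196, 0.257 and 0.222 against 0.133, 0.363 and 0.226. The constitutive subunits themselves were not called, with log2 fold changes of -0.71 ± 0.44 for Psmb5, -0.75 ± 0.34 for Psmb6 and -0.12 ± 0.33 for Psmb7 (edgeR, adjusted p of 0.646, 0.600 and 0.929). Psmb5 had 54.9, 87.0 and 52.0 CPM in Cx43FL and 27.1, 65.5 and 26.0 CPM in Cx43KO. Psmb6 had 140, 258 and 155 CPM against 75.1, 127 and 127 CPM. Lower denominators are thus part of the higher ratio of Psmb8 in Cx43KO replicate 3 and of Psmb9 in each Cx43KO library.

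Nlrc5, a member of the NLR family that acts in the nucleus as the class I transactivator (ENSMUSG00000074151, chr8:94472763-94527272, plus strand, 49 exons), was almost uncounted outside 2 libraries. It had 0, 0 and 1 counts in Cx43FL and 1, 248 and 107 in Cx43KO, the latter 0.0621, 9.97 and 3.30 CPM. Cx43KO replicate 1 was thus at the Cx43FL level, and replicates 2 and 3 held all but 2 of its counts. With the counts of each genotype pooled, the rate in Cx43KO was 221 times that in Cx43FL. This ratio rests on 1 count in Cx43FL and on Cx43KO replicates 2 and 3, so that its size is not a measured one. It did not pass the filter with all libraries, and without Cx43KO replicate 1 it passed only through the libraries where it was high, so that no p is given for it.

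**Figure D3:**
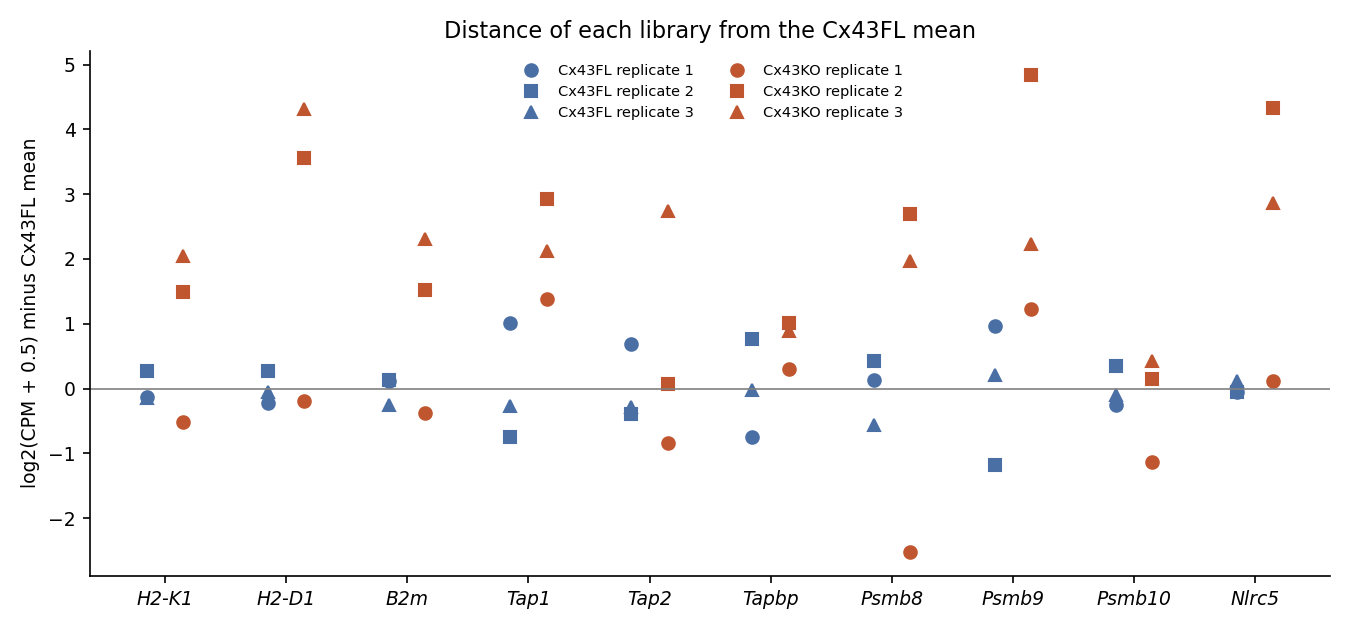
Distance of every library from the Cx43FL mean on the log2(CPM + 0.5) scale (vertical axis) for the 10 genes (horizontal axis), with symbols for the replicates and colours for the genotypes. Cx43KO replicate 1 lies at -0.51, -0.18 and -0.38 for H2-K1, H2-D1 and B2m, where replicate 3 lies at 2.05, 4.32 and 2.30.

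Compared per length, the members cover a wide range in Cx43FL. B2m stood highest, at 185 ± 26.7 CPM per kb of transcript (SD, n = 3), followed by Psmb10 (25.8), H2-K1 (20.1), Tapbp (6.87), H2-D1 (3.66), Psmb8 (3.12), Psmb9 (1.53), Tap1 (0.176), Tap2 (0.166) and Nlrc5 (0.00313). Neighbours in this order whose libraries overlapped were Psmb10 and H2-K1, Tapbp and H2-D1, H2-D1 and Psmb8, Psmb8 and Psmb9, and Tap1 and Tap2. The place of Psmb9 depends on the transcript chosen. The one counted has 2884 bases and 3924 counts over all libraries, and a protein-coding one of 1352 bases had 3907, which would give a higher level per kb. In Cx43KO the mean of H2-D1 (41.9 ± 37.0 CPM per kb) was near that of H2-K1 (51.3 ± 35.0), both with a spread nearly as large as the mean. Of the 10 members, 7 lie within 1.35 Mb on chromosome 17, in and around the MHC, and B2m, Psmb10 and Nlrc5 lie elsewhere.

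**Figure D4:**
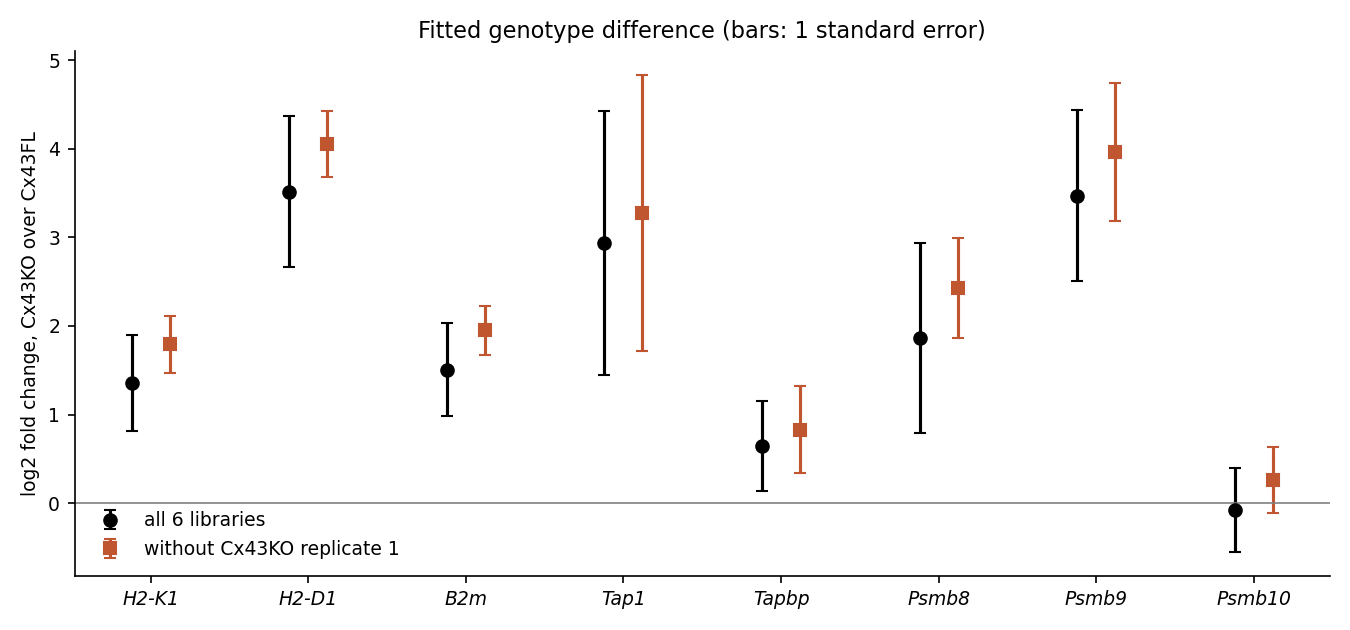
Fitted log2 fold change of Cx43KO over Cx43FL (vertical axis) with bars of 1 standard error for the 8 genes that passed the filter with all 6 libraries, from edgeR with all libraries and without Cx43KO replicate 1. For H2-D1 the estimate goes from 3.51 ± 0.85 to 4.06 ± 0.37, while Psmb10 stays within 1 standard error of 0.

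The wider pathway was read from 5 lists holding 79 other genes, of which 59 were tested. With all libraries edgeR called none of them in either direction, 4 were higher and 2 lower at an unadjusted p under 0.05, and their median log2 fold change was 0.16. DESeq2 with its prior called none either, and without the prior it called 2, H2-Aa and H2-Eb1. These had at most 0.326 and 0.716 CPM in Cx43FL, and their calls are not read as results.

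Among the other class I heavy chains and relatives, which include the non-classical molecules, 6 of 18 were tested and their median log2 fold change was 0.13. H2-T23, which encodes the non-classical molecule Qa-1, had 0.922, 1.46 and 4.30 CPM in Cx43FL and 2.36, 5.26 and 7.44 CPM in Cx43KO (log2 fold change 1.17 ± 1.03; edgeR, adjusted p = 0.742). H2-M3, which presents formylated peptides, was at 0.261 CPM or less in 5 libraries and at 2.25 CPM in Cx43KO replicate 3. H2-T24, added after its values were seen as the only gene of the list with an unadjusted p under 0.05, was lower, with 11.9, 12.9 and 2.93 CPM in Cx43FL and 3.04, 1.65 and 1.70 CPM in Cx43KO (log2 fold change -2.12 ± 0.89; edgeR, adjusted p = 0.579). Of the 6 tested, H2-T23 was the only one with Cx43KO replicates 2 and 3 above every Cx43FL library.

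Of the 12 genes of peptide trimming and loading, all were tested, with a median of 0.54. Erap1, the aminopeptidase that trims peptides in the endoplasmic reticulum, had 6.59, 2.98 and 6.71 CPM in Cx43FL and 5.28, 12.2 and 25.7 CPM in Cx43KO (log2 fold change 1.41 ± 0.75; edgeR, adjusted p = 0.609). Among loading chaperones, the log2 fold changes were 0.53 ± 0.32 for Calr, 0.28 ± 0.35 for Pdia3 and 0.90 ± 1.03 for Tapbpl, none of them called. Uggt1, which checks the folding of glycoproteins, and the chaperone Canx were added after their values were seen. Uggt1, the only gene of the list with an unadjusted p under 0.05, had 10.9, 6.04 and 8.86 CPM in Cx43FL and 51.1, 10.3 and 33.2 CPM in Cx43KO (1.87 ± 0.63; edgeR, adjusted p = 0.540), and Canx was above every Cx43FL library in each Cx43KO library (0.55 ± 0.31; edgeR, adjusted p = 0.631). In this list Cx43KO replicate 1 was not low, its median difference from the Cx43FL mean being 0.61.

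The 19 constitutive proteasome subunits and activators had a median of -0.34, and every Cx43KO library was below every Cx43FL library for 5 of them, Psma1, Psma6, Psmb1, Psmb2 and Psmb6, against 7.45% of all tested genes. None was called. Psme1 and Psme2, the subunits of the interferon-inducible activator PA28, had log2 fold changes of 0.22 ± 0.54 and 0.32 ± 0.46. Psme2 had 20.8, 27.1 and 24.4 CPM in Cx43FL and 16.7, 36.0 and 37.5 CPM in Cx43KO, with replicate 1 below and replicates 2 and 3 above every Cx43FL library, as for H2-K1.

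Of the regulators and interferon signalling genes, 19 of 20 were tested, with a median of 0.20. Cx43KO replicates 2 and 3 but not 1 were above every Cx43FL library for 5 of them, against 5.80% of all tested genes. Irf1, Irf9 and Ifnar1 were among these 5. Irf1, an interferon-induced activator of class I genes, had 3.62, 1.86 and 10.4 CPM in Cx43FL and 0.435, 21.7 and 26.1 CPM in Cx43KO (log2 fold change 1.60 ± 1.12; edgeR, adjusted p = 0.678). The interferon-gamma receptor chains Ifngr1 and Ifngr2 (0.14 ± 0.97 and 0.20 ± 0.46) and Rfx5, a subunit of the complex that binds MHC promoters (0.26 ± 0.42), lay close to 0.

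Class II genes, which present extracellular peptides to CD4+ T cells and are typical of professional antigen-presenting cells, numbered 10 in the lists, of which 3 were tested and none called with all libraries. Cx43KO replicates 2 and 3 were above every Cx43FL library for 7 of the 10, although H2-DMb2, H2-Oa and H2-Ob had at most 0.340 CPM in any library. Of the 3 tested it held for 2, Cd74 and H2-Eb1, without replicate 1 above. The others did not pass the filter, and where Cx43FL held 0 counts any count is above it. Over all tested genes this held for 8.08% with replicate 1 above as well, and for 5.80% without it. H2-Aa had 0, 0.0663 and 0.326 CPM in Cx43FL and 0.497, 45.1 and 45.7 CPM in Cx43KO, and H2-Ab1 had 0.527, 0 and 0.0651 CPM against 0.248, 18.0 and 45.0 CPM. Neither passed the filter with all libraries, and without Cx43KO replicate 1 both passed it only through the libraries where they were high. No p is therefore given for them. Cd74, the invariant chain, had 8.56, 32.6 and 5.15 CPM in Cx43FL and 30.4, 54.8 and 162 CPM in Cx43KO (2.42 ± 0.76; edgeR, adjusted p = 0.538). The class II transactivator Ciita had at most 0.161 CPM in Cx43KO and 0.988 CPM in Cx43FL.

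Markers of cells other than astrocytes also differed between these libraries. The 12 microglia markers, all with counts in at least 1 library, summed to between 37.1 and 65.7 CPM in Cx43FL, and reached 173, 97.2 and 195 CPM in Cx43KO replicates 1 to 3. This sum was thus high in Cx43KO replicate 1 too, where the class I genes were not. The defining microglial genes Cx3cr1, P2ry12 and Tmem119 had log2 fold changes of 0.13, -0.20 and -0.23. The 7 neutrophil and monocyte markers summed to between 1.33 and 3.62 CPM in Cx43FL, and reached 11.1, 32.3 and 87.4 CPM in Cx43KO, nearly all of it Lyz2 in replicates 2 and 3 (31.4 and 84.4 CPM), with S100a8, Retnlg and Camp at 0 in all 6 libraries. Of the 8 T cell markers, which summed to 0.186 to 4.74 CPM over the 6 libraries, Cd3e, Cd3d, Cd3g, Cd8a and Cd8b1 were at 0 in every library. The B and plasma cell markers were highest in Cx43KO replicate 1 (78.1 CPM) and lowest in replicate 3 (3.43 CPM). The immunoglobulin gene Ighg2c, not in that list and named after its values were seen, had at most 1.13 CPM in Cx43FL. It had 3.23, 107 and 30.6 CPM in Cx43KO. Ighg2c passed the filter only through libraries where it was high, so that no p is given for it. The endothelial markers summed to at most 12.6 CPM in Cx43FL and at least 15.8 CPM in Cx43KO. The part of these cells in the class I levels was not tested. More cells of a type and more RNA per cell cannot be told apart in bulk libraries.

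**Figure D5:**
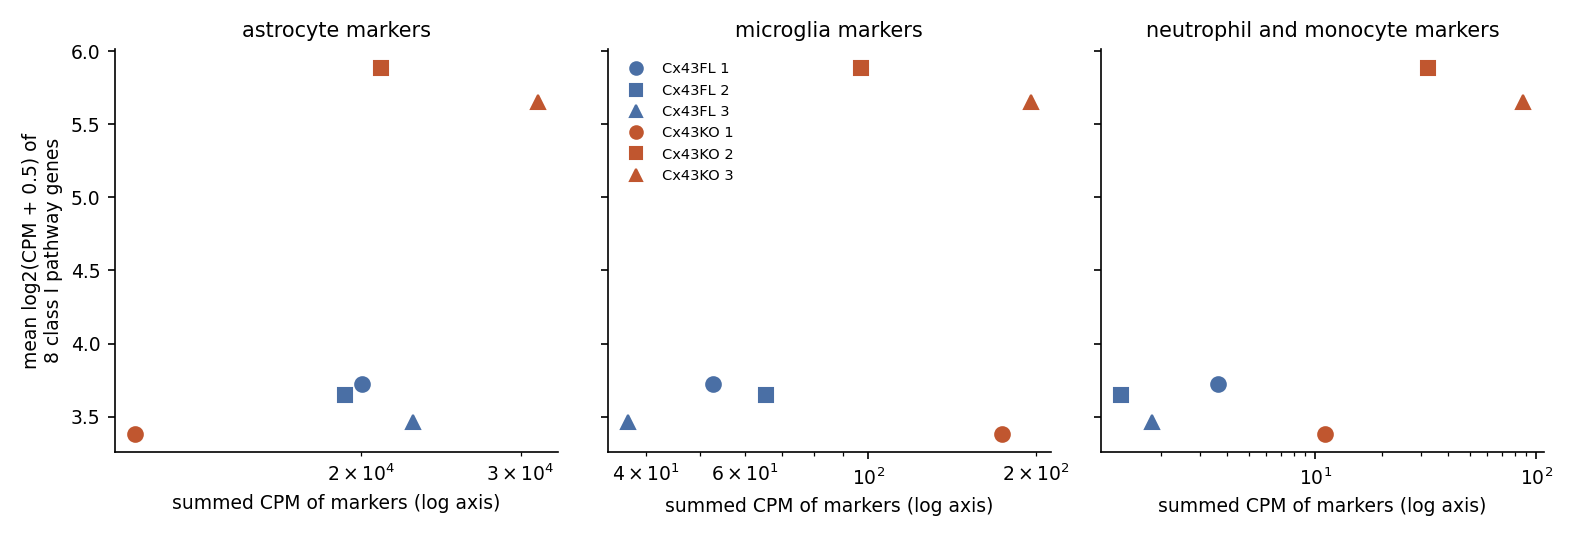
Mean log2(CPM + 0.5) of the 8 pathway genes that passed the filter (vertical axis) against the summed CPM of astrocyte, microglia, and neutrophil and monocyte markers (horizontal axes, logarithmic) in each of the 6 libraries. Cx43KO replicates 2 and 3 lie at 5.89 and 5.65 and the other libraries between 3.38 and 3.72, while the microglia sum is 173 CPM in Cx43KO replicate 1 and 97.2 CPM in replicate 2.

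The genes whose levels followed the mean of the 8 tested members most closely over the 6 libraries were Lrrc46, Ifih1 and Ifi47, with Pearson's r of 0.990, 0.987 and 0.985. Ifih1, a sensor of viral RNA, had 7.64, 8.82 and 7.75 CPM in Cx43FL and 7.95, 27.2 and 20.2 CPM in Cx43KO. Ifi47, an interferon-inducible GTPase, had at most 0.790 CPM in Cx43FL and 0.0621 CPM in Cx43KO replicate 1, and 10.8 CPM or more in replicates 2 and 3. Lrrc46 had 0.725, 0.332 and 0.456 CPM against 0.186, 5.55 and 5.25 CPM. These correlations describe 6 libraries that share their scaling and fall into separate levels of the members.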

How the data were processed

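Polysomal mRNAs recovered by TRAP from the hippocampus were sequenced in 3 Cx43FL and 3 Cx43KO libraries. The authors removed reads of 40 bases or fewer or with a mean quality of 30 or less, mapped them with STAR on mm10, discarded those with more than 1 alignment, and deposited the raw counts that HTSeq-count 0.5.3 gave per Ensembl 75 transcript. Whether counting used the strand is not given in the sources used here. Genotype and replicate number come from the labels.

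The GRCm38 annotation held 73157 of the transcripts and lacked 2309 (1.60% to 1.78% of the counts). Tests had been planned for counts per gene, so the transcript most counted over the 6 libraries stood for its gene. Total counts ranged from 33423491 to 77030398 per library, and 3 counts correspond to 0.0926 to 0.199 CPM, which covers counting error only. Genotypes were compared with edgeR 4.0.16 (R 4.3.3) by TMM, filterByExpr and the quasi-likelihood test over all genes, with Benjamini-Hochberg adjustment. SE is the absolute log2 fold change over the square root of F. CPM are counts per M of the TMM-scaled size over tested genes. No 2 libraries were as close as sampling noise (chi-square per degree of freedom 32.5 or more).

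Alternatives were DESeq2 1.42.0 with and without its prior, its size factors, upper-quartile factors, no filter, 10 counts in every library, the replicate number as a block, leaving out each library, transcripts added up, every transcript fitted, the unadjusted p and no minimum of 50 on the mean count. Scripts were tested on simulated data. Named are the 10 members, fixed genes of 5 pathway lists with any gene called, Gja1 and the 3 genes most correlated with the members, and some results under this rule are not reported here. Members and lists were chosen with earlier results of these data known. Promoter sequences are from RefSeq (GRCm38.p6).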

Additional observations from a re-analysis of the deposited data

How the results depend on the processing

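Refitting single members under the alternatives kept direction and side of the threshold in 110 cases, and 6 passed it: H2-D1 under both DESeq2 fits and without Cx43KO replicate 1, B2m without that library and Psmb9 under both DESeq2 fits. Psmb10 reversed to 0.12 without Cx43FL replicate 2 and to 0.26 without Cx43KO replicate 1, its log2 fold changes ranging from -0.39 to 0.26 when each library was left out. The members called higher numbered 0 in the edgeR test, 2 with DESeq2's prior, 3 without it and 0 to 2 when each library was left out. The 3 include Nlrc5, which had 1 count in Cx43FL in all and did not pass the filter on low counts. Its call is not read as a result. The other pathway genes called higher numbered 0, 2 with DESeq2 without the prior and 0 to 2 when each library was left out. These calls were of the class II genes H2-Aa, H2-Ab1 and H2-Eb1, which were close to 0 CPM in Cx43FL, and are not read as results. Over all genes, 1 was called higher (Prm1), 0 with at least 10 counts in every library or with transcripts added up, 0 to 11 when each library was left out, 113 and 147 with DESeq2 with and without its prior, and 763 with the unadjusted p. The genes called lower went from 0 to 17, 27 and 358 in the last 3. With the replicate block, 2 genes were called higher and no member changed its call. Same-numbered libraries did not deviate together (correlations of -0.05 to 0.01), so that the numbers are not taken to pair them. Over the alternatives, adjusted p ranged from 0.00183 to 0.934 for H2-D1, from 0.0214 to 0.934 for B2m and from 0.00982 to 0.934 for Psmb9. The causes were not tested. The spread between libraries, with a biological coefficient of variation of 0.600 over all tested genes, limits these comparisons, and depth limits those of Tap1, Tap2 and Nlrc5, which had 26 counts or fewer in the Cx43FL libraries together.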
